A study of Mus musculus with 8 samples.

Results

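The mitochondrial genome transcripts were taken as every gene that the count files place on chromosome MT, all with symbols starting mt-. There were 35 such genes of 49315 in all, namely 13 protein genes and 22 tRNA genes. The mitochondrial rRNAs were not analysed here and are part of no mitochondrial total given below. The RNA came from OT-I mouse CD8 T cells, whose transgenic receptor recognises a peptide of ovalbumin, edited as a cell pool by nucleofection with a CRISPR guide. In 4 control libraries (labelled Control KO, WT) the guide was directed at the bacterial gene LacZ. In 4 Carm1-edited libraries (labelled Carm1 KO) it was directed at Carm1, the gene of an arginine methyltransferase. Both groups were CD45.1 cells, selected as naive CD8 cells from spleen and inguinal lymph node, cultured with 2.5 ng/ml IL-7 and 50 ng/ml IL-15 and pelleted 7 days after editing. The series text adds a co-culture with ovalbumin-expressing B16F10 melanoma cells for both groups, which the sample protocols do not mention. The age of the mice and their number were not stated. The labels speak of 4 technical replicates. The p-values therefore cover the spread between these libraries alone, which may be technical, and an effect of the edit and a difference between the cultures cannot be told apart.

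The mitochondrial genome is a small circle that is transcribed from both strands, by the polymerase Polrmt, as long precursors that span many genes. The tRNAs sit between most of the other genes, and cutting them out frees the mRNAs, which then receive a poly(A) tail. The proteins are core subunits of the respiratory chain: mt-Nd genes encode parts of complex I, mt-Cytb of complex III, mt-Co genes of complex IV (cytochrome c oxidase), and mt-Atp genes of the ATP synthase. Since genes of 1 strand start out on 1 precursor, differences between their mature mRNAs are usually described in terms of processing and stability. In CD8 T cells, mitochondrial respiration is known for its part in the upkeep of memory cells.

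Several of these genes have near-identical copies in the nuclear genome, so reads from both places can be alike. Sequences of the members were compared with all annotated nuclear transcripts (GENCODE M21, GRCm38, the assembly of mm10), and copies with at least 95% identity over at least 100 bases were kept. Annotated copies were found for 9 of the 35 members, all of them protein genes. On chromosome 1, 7 pseudogenes on the minus strand between 24611535 and 24616197 followed the mitochondrial order from the end of mt-Co1 to the first part of mt-Nd4. Of the 6 intervals between them, 5 had the same length as on the mitochondrial genome and the other differed by 1 base (74 on chromosome 1 and 73 on MT). The copies of mt-Co2 (Gm28661), mt-Atp6 (Gm10925), mt-Co3 (Gm28437), mt-Nd4l (Gm10222) and the first 876 bases of mt-Nd4 (Gm28439) were 100% identical over the aligned bases. The copy of mt-Nd3 (Gm28438) differed by 1 substitution, T3C, counted from the first base of mt-Nd3 with the mitochondrial base first. The part of mt-Atp8 outside mt-Atp6 lies on MT in an interval of 233 bases between the stretches copied in Gm28661 and Gm10925, which are also 233 bases apart on chromosome 1. No annotated pseudogene covers that interval.

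The first 60 bases of mt-Co2 are shown because they cannot be told apart from those of Gm28661. Capitals mark the start codon.
mt-Co2 (chromosome MT, 7013 to 7072, plus strand): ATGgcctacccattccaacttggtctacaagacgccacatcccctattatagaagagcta

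The same comparison for mt-Co1 is shown over a stretch of 60 bases (positions 1063 to 1122 of the gene, chromosome MT, 6390 to 6449, plus strand), where it meets the start of its copy on chromosome 1, Gm29216, and runs beside a copy of its whole length on chromosome 2, Gm13340. Capitals in mt-Co1 mark the bases at which either copy differs, and capitals in a copy mark its differences from mt-Co1.
mt-Co1: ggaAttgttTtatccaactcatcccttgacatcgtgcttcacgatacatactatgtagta
Gm29216: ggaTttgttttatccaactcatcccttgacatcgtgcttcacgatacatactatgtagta
Gm13340: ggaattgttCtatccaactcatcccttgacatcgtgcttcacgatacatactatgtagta
Over the 483 aligned bases Gm29216 differed from mt-Co1 by 1 substitution, A1066T, and over 1545 bases Gm13340 differed by 37. Counted in windows of 150 bases, the length of 1 read, 23.6% of the windows of mt-Co1 also occurred exactly in an annotated nuclear transcript. That share was 59.2% for mt-Nd4, between 97% and 99.8% for mt-Co2, mt-Atp6, mt-Co3, mt-Nd3 and mt-Nd4l, and 0 for mt-Nd1, mt-Nd2, mt-Nd5, mt-Nd6, mt-Cytb and mt-Atp8.

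Reading frames also overlap within the genome. The last 43 bases of mt-Atp8 are the first 43 of mt-Atp6, and mt-Nd4l and mt-Nd4 share 7 bases. Each pair is known to be carried on 1 mature mRNA, so reads from the overlap belong to both genes. The overlaps are shown in capitals, with 12 bases on either side.
mt-Atp8/mt-Atp6 (chromosome MT, 7915 to 7981): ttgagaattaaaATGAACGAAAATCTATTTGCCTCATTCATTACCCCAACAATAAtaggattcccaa
mt-Nd4l/mt-Nd4 (chromosome MT, 10155 to 10185): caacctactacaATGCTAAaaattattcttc
In 3 protein genes, mt-Co3, mt-Nd4 and mt-Cytb, the annotated length is not a multiple of 3 and ends in a single T, which the poly(A) tail is known to complete to a stop codon. The end of mt-Cytb, the gene that fell most among the 13, is given with that T in capitals.
mt-Cytb (chromosome MT, 15259 to 15288, plus strand): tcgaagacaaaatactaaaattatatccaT

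Total counts ran from 37556330 to 41439998 per library. Counts on chromosome MT were 232609 to 254809 per control library and 414713 to 442073 per Carm1-edited library. Carm1 itself fell from 95.8 ± 1.04 to 32.8 ± 0.493 CPM (SD, n = 4, edgeR quasi-likelihood test, adjusted p = 1.8e-37), where CPM are counts scaled to a common library size with TMM factors (trimmed mean of M values). Of all 14970 tested genes 43.2% were called lower and 44.5% higher (edgeR adjusted p under 0.05), the background for the marker counts that follow. Among marker lists, 8 of 8 myeloid genes fell, their sum being 111 to 116 CPM per control and 5.81 to 6.45 CPM per Carm1-edited library. Of 7 B cell genes 4 were tested, of which 3 rose and 1 fell, from a sum of 274 to 281 CPM to one of 930.4 to 957 CPM. Of 5 erythroid genes 4 fell, from 4.76 to 5.29 CPM to 0.167 to 0.451 CPM in sum. The T cell genes (6 of 8 rising and 2 falling) summed to 4881 to 4995 and to 6676 to 6886 CPM. The melanoma markers Tyr, Tyrp1 and Dct had 0 counts in both groups, Mlana had 0 in the Carm1-edited libraries, and the 6 genes of the list summed to 4.05 to 4.31 and 13.8 to 15.1 CPM. Of these 6 genes 2 were tested, and both were called higher. Whether such other cells were present, and what part they had in the results below, was not tested. In bulk RNA, fewer cells of a type and less RNA per cell cannot be told apart.

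The mitochondrial share of all counts was higher in the Carm1-edited libraries, and nearly all of that difference lay in mt-Co1. The share was 0.615%, 0.596%, 0.605% and 0.600% in the control libraries. It was 1.09%, 1.13%, 1.10% and 1.12% in the Carm1-edited libraries, 1.84 times the control mean. Without mt-Co1 it was 0.332% ± 0.00388 and 0.363% ± 0.00647 (SD, n = 4), a ratio of 1.09. Neither pair of groups overlapped, and for both the exact two-sided permutation test gave p = 0.0286, the smallest that 4 against 4 allows (adjusted p = 0.0571 over 8 library measures). With library sizes scaled by TMM factors the difference without mt-Co1 was -0.007611 percentage points (Carm1-edited minus control), so its direction changed with the scaling. With mt-Co1 it was 0.412 percentage points, positive under both scalings.

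Each gene was then tested for its level in a model fitted to all genes (edgeR quasi-likelihood test, adjusted p under 0.05). Of the 35 members 31 had enough counts to be tested, and of these 21 were called higher, 3 lower and 7 neither. Differences were the rule in this comparison, with 87.7% of 14970 genes called, 44.5% higher and 43.2% lower. With upper-quartile factors 8004 of all genes were called higher and 5121 lower, in place of 6667 and 6468. Among the 31 tested members 21 did not overlap between groups, against 83.4% of all tested genes. Neither the share of members called in either direction nor the share without overlap was above the background. By direction, 21 of 31 members called higher and 3 of 31 called lower stand beside 44.5% and 43.2% of all genes. The median log2 fold change (Carm1-edited minus control) of the tested members was 0.43, beside 0.02 for all tested genes. The protein genes were 9 higher, 3 lower and 1 not called, with a median of 0.27, and the 18 tested tRNA genes were 12 higher and 6 not called, with a median of 0.67. Other scalings moved the median of all genes by 0.21 (upper-quartile factors) and 0.16 (library totals alone), and differences of that size depend on the scaling.

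Among the complex IV genes, mt-Co1, which encodes the catalytic subunit of cytochrome c oxidase, had the largest difference of any protein gene. It was at 2919, 2863, 2863 and 2850 CPM in the control libraries and at 6965, 7204, 7006 and 7097 CPM in the Carm1-edited libraries. The groups lay far apart and each was tight. The fold change was 2.46 (log2 1.30 ± 0.018 SE, edgeR adjusted p = 6.5e-41), and log2 1.51 with upper-quartile factors and 1.46 with library totals alone. The other core subunits of the enzyme, mt-Co2 and mt-Co3, differed far less. Their levels were 9.71 ± 0.706 and 11.4 ± 0.661 CPM for mt-Co2, and 11.3 ± 1.69 and 13.5 ± 0.877 CPM for mt-Co3 (SD, n = 4). Both were called higher (log2 0.22 ± 0.059 and 0.25 ± 0.087, edgeR adjusted p = 0.00075 and 0.014), although the groups overlapped for both. For mt-Co3 the call was lost on leaving out 1 library in 4 of 8 cases, namely control replicate 4 or Carm1-edited replicate 1, 3 or 4 (edgeR adjusted p = 0.055 to 0.081). These 2 genes lie wholly within the part copied on chromosome 1.

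**Figure D1:**
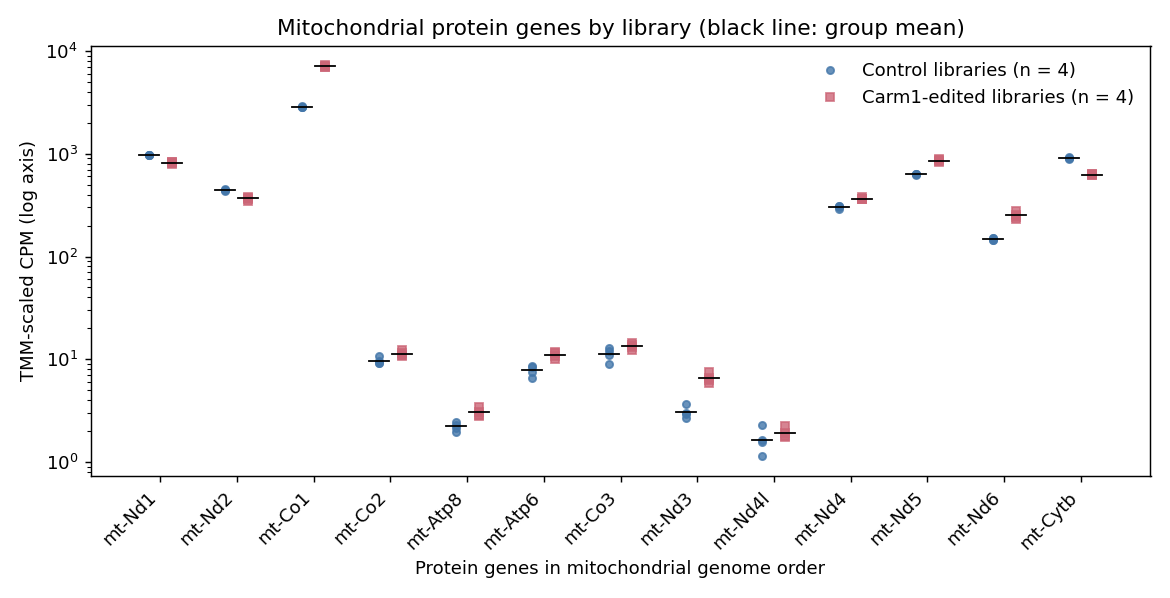
TMM-scaled CPM (log axis) of the 13 mitochondrial protein genes in genome order, with a circle for each of 4 control libraries, a square for each of 4 Carm1-edited libraries and a black line for each group mean. The genes from mt-Co2 to mt-Nd4l sit far below the other 7, mt-Co1 is highest in both groups, and mt-Nd1, mt-Nd2 and mt-Cytb are lower in the Carm1-edited libraries.

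The single mitochondrial gene of complex III moved in the opposite direction. The gene mt-Cytb, which encodes cytochrome b, was at 909, 897, 912 and 919 CPM in the control libraries and at 626, 629.9, 621 and 628 CPM in the Carm1-edited libraries. No control library came near any Carm1-edited library. The log2 fold change was -0.54 ± 0.021 (edgeR adjusted p = 1.6e-25), and it stayed negative with upper-quartile factors (-0.32) and library totals alone (-0.38).

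Complex I genes were divided. The genes mt-Nd1 and mt-Nd2, which lie before mt-Co1 with tRNA genes between them, fell. Among those that lie after it, mt-Nd3, mt-Nd4, mt-Nd5 and mt-Nd6 rose, and mt-Nd4l was not called. Levels of mt-Nd1 were 968, 969, 973 and 970.1 CPM in the control and 832, 814, 789 and 835 CPM in the Carm1-edited libraries (log2 -0.25 ± 0.021, edgeR adjusted p = 8.9e-14). For mt-Nd2 they were 448, 447, 448 and 438 CPM against 372, 366, 350.4 and 381 CPM (log2 -0.28 ± 0.023). The groups were separate for both genes, but the differences were about as large as the shift between scalings. With upper-quartile factors mt-Nd1 was at log2 -0.03 (edgeR adjusted p = 0.16) and mt-Nd2 at -0.06 (edgeR adjusted p = 0.011).

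On the other side of mt-Co1, mt-Nd5 rose from 631 ± 5.92 to 853 ± 24.9 CPM (SD, n = 4, log2 0.43 ± 0.022). The gene mt-Nd4 rose from 302 ± 7.07 to 365 ± 7.29 CPM (log2 0.27 ± 0.022). Of the length of mt-Nd4, 63.6% is covered by Gm28439. Among the genes of this side, mt-Nd6 is the single protein gene on the minus strand. It was at 150.2, 145, 150.2 and 146 CPM in the control and at 255, 231, 244 and 276 CPM in the Carm1-edited libraries. It rose 1.70-fold (log2 0.77 ± 0.050, edgeR adjusted p = 3.0e-07), with a wider spread in the Carm1-edited libraries (SD 18.9 against 2.70 CPM). Its end overlaps the end of mt-Nd5 on the other strand. The kit does not mark strand, so reads from mt-Nd6 and from plus-strand RNA that runs across it cannot be told apart.

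**Figure D2:**
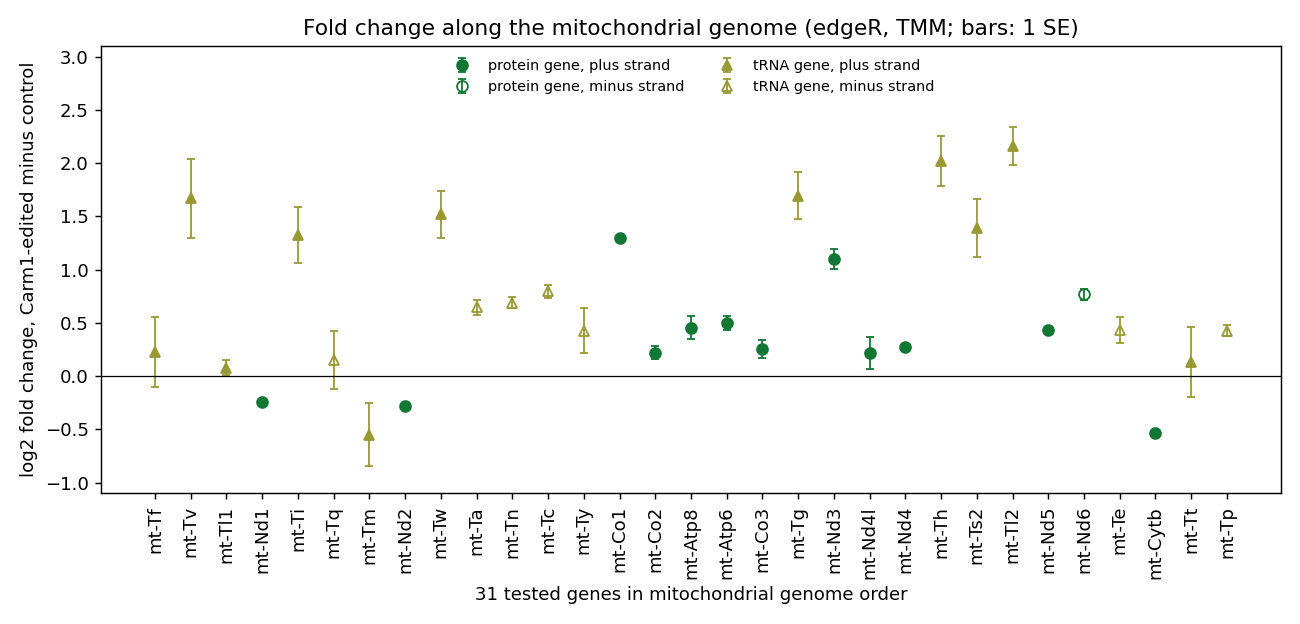
Log2 fold change (Carm1-edited minus control, edgeR with TMM factors, bars 1 SE) of the 31 tested members, spaced evenly in genome order, with circles for protein genes, triangles for tRNA genes, filled symbols for the plus strand and open ones for the minus strand. Among protein genes the values run from -0.54 at mt-Cytb to 1.30 at mt-Co1, and the tRNA genes mt-Th and mt-Tl2 lie above 2.

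The remaining protein genes lie between mt-Co2 and mt-Nd4. The ATP synthase gene mt-Atp8 rose from 2.23 ± 0.223 to 3.06 ± 0.269 CPM and mt-Atp6 from 7.80 ± 0.913 to 11.04 ± 0.704 CPM (SD, n = 4, log2 0.46 ± 0.11 and 0.50 ± 0.068). The log2 ratio of their counts was -1.81 ± 0.0490 and -1.86 ± 0.133, a difference that was smaller than the spread (exact permutation p = 0.57, adjusted p = 0.65 over 8 library measures). The gene mt-Nd3 was at 3.65, 2.69, 3.04 and 2.92 CPM in the control and at 7.58, 6.63, 6.32 and 5.86 CPM in the Carm1-edited libraries, with no overlap (log2 1.10 ± 0.092). The gene mt-Nd4l was at 1.66 ± 0.469 and 1.94 ± 0.220 CPM (log2 0.21 ± 0.15, edgeR adjusted p = 0.18), and passed with upper-quartile factors (log2 0.43), with library totals alone (log2 0.37) and without control replicate 1 (log2 0.40, edgeR adjusted p = 0.014). Its partner mt-Nd4 rose by a similar log2 value, and their log2 count ratio was -7.55 ± 0.410 and -7.57 ± 0.179 (exact permutation p = 0.91, adjusted p = 0.91).

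Levels of different genes can be compared per length, in CPM per kilobase of the gene. The 6 protein genes from mt-Co2 to mt-Nd4l ran from 5.58 to 14.4 CPM per kilobase in the control libraries. The other 7, namely mt-Nd1, mt-Nd2, mt-Co1, mt-Nd4, mt-Nd5, mt-Nd6 and mt-Cytb, ran from 219 to 1860. The 6 held 0.560% ± 0.0615 of the mitochondrial counts of the control and 0.452% ± 0.0211 of those of the Carm1-edited libraries (SD, n = 4). The partners on 1 mRNA, mt-Nd4 and mt-Nd4l, were on either side of this divide, mt-Nd4 at 219 ± 5.13 and mt-Nd4l at 5.58 ± 1.58 CPM per kilobase. Within the 7 genes the control order was mt-Co1 at 1860, mt-Nd1 at 1014, mt-Cytb at 795, mt-Nd2 at 429, mt-Nd5 at 346, mt-Nd6 at 285 and mt-Nd4 at 219 CPM per kilobase. Each neighbour in that order differed beyond the SDs, which were 20.01 or less and cover the spread between libraries only. Of the 150-base windows of mt-Nd4 59.2% also occurred in nuclear transcripts, and of those of mt-Co1 23.6%. How reads from such windows were assigned is not stated, so the places of mt-Nd4 and mt-Co1 in the order of either group are uncertain. In the Carm1-edited libraries mt-Co1 was at 4575, mt-Nd1 at 854 and mt-Cytb at 548. They were followed by mt-Nd6 at 485 ± 36.4 and mt-Nd5 at 468 ± 13.6, which lay within each other's spread, then mt-Nd2 at 354 and mt-Nd4 at 265.

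Counts of a member and of its nuclear copy were of similar size for 4 of the 5 copies with 100% identity. Over the 4 control libraries mt-Co2 had 1458 counts and Gm28661 had 1211, mt-Atp6 1171 and Gm10925 1329, mt-Co3 1696 and Gm28437 1690, and mt-Nd4l 250 and Gm10222 200. The ratio of member to copy over all 8 libraries was 0.873 to 1.40 for these 4 pairs. For mt-Nd4 and Gm28439, identical over the first 876 bases of the gene only, it was 108. Fold changes of member and copy were close for some pairs and not for others. Gm10925 had a log2 fold change of 0.52 ± 0.070 beside 0.50 for mt-Atp6, Gm28661 0.23 ± 0.12 beside 0.22 for mt-Co2, and Gm28437 0.16 ± 0.059 beside 0.25 for mt-Co3, though the call of Gm28661 did not pass (edgeR adjusted p = 0.080). The low-count copies of mt-Co1 also moved with it, Gm29216 by 1.28 ± 0.081 and Gm13340 by 1.28 ± 0.093. By contrast mt-Nd3 rose while its copy Gm28438 fell (log2 -0.67 ± 0.18, edgeR adjusted p = 0.00084), from 176 to 120 counts over the group. Values of opposite sign, with the copy not called, were also found for Gm10222 (-0.09 ± 0.15, beside 0.21 for mt-Nd4l) and for Gm13341, another copy of mt-Co2 (-0.24 ± 0.30, beside 0.22). Of the 9 nuclear copies on the list used here 5 were called higher, 1 lower and 3 neither. Over all 14970 tested genes 44.5% were called higher and 43.2% lower, 87.7% in either direction. With the counts of each copy added to its member, the log2 fold change was 1.30 for mt-Co1 and 0.22 for mt-Co2, as before, and moved from 0.25 to 0.21 for mt-Co3. It moved from 1.10 to 0.79 for mt-Nd3 and from 0.21 to 0.09 for mt-Nd4l, which was not called either way (edgeR adjusted p = 0.45). No source used here says how reads that match both places were assigned, and the part of that step in the low counts from mt-Co2 to mt-Nd4l was not tested.

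**Figure D3:**
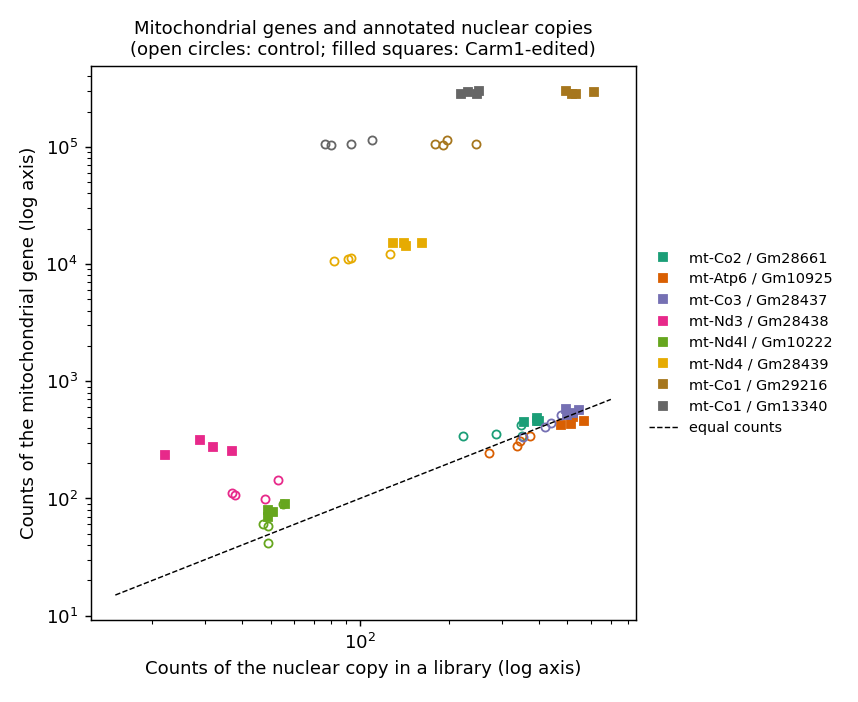
Counts per library of a mitochondrial gene (vertical, log axis) against its annotated nuclear copy (horizontal, log axis), with open circles for the 4 control and filled squares for the 4 Carm1-edited libraries, 1 colour per pair. Pairs from mt-Co2, mt-Atp6, mt-Co3 and mt-Nd4l lie near the dashed line of equal counts, mt-Nd3 lies above it, and mt-Nd4 and mt-Co1 lie far above it.

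The tRNA genes are 59 to 75 bases long, shorter than 1 read of 150 bases, so a full-length read over a tRNA gene also covers its neighbours. Mature tRNAs carry no poly(A) tail, and the library kit selects for one. Reads from mature tRNA and from precursors cannot be told apart in the counts, so a value is given as reads over that gene, not as an amount of mature tRNA. The 4 printed here are the 3 with the highest levels in both groups (mt-Tn for asparagine, mt-Tp for proline and mt-Tc for cysteine) and the one with the largest difference (mt-Tl2, for leucine). They are shown in the sense of the tRNA, with no bases marked.
mt-Tn (chromosome MT, 5089 to 5159, minus strand): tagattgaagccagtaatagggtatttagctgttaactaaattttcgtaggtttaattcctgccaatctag
mt-Tp (chromosome MT, 15356 to 15422, minus strand): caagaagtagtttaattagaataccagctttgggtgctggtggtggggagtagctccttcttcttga
mt-Tc (chromosome MT, 5192 to 5257, minus strand): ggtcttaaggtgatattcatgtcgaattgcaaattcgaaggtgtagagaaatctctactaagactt
mt-Tl2 (chromosome MT, 11671 to 11741, plus strand): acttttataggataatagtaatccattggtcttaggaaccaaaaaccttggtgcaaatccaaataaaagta

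Reads over the tRNA genes were higher in the Carm1-edited libraries or not called, and none of the 18 tested was called lower. The kit does not mark strand, so the strand named here and below is that of the annotated gene, not of the RNA read. Of the minus-strand genes 5 of 7 rose, with a median log2 fold change of 0.43. Over all tested genes 44.5% were called higher, the background for this count and for that of the plus strand below. The gene mt-Tn was at 18.9, 18.1, 19.9 and 17.9 CPM in control and at 32.7, 27.9, 27.98 and 31.9 CPM in Carm1-edited libraries, with no overlap (log2 0.69 ± 0.051). The other 4 were mt-Tc, from 9.39 ± 0.518 to 16.3 ± 1.37 CPM, mt-Tp, from 19.5 ± 0.956 to 26.2 ± 2.30 CPM, mt-Ta (alanine), from 7.37 ± 0.945 to 11.6 ± 0.712 CPM, and mt-Te (glutamate), from 3.79 ± 0.740 to 5.11 ± 0.748 CPM (SD, n = 4). Of these 4 only mt-Te overlapped between the groups. The genes mt-Ta, mt-Tn and mt-Tc lie together in the stretch between mt-Nd2, which fell, and mt-Co1, which rose.

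On the plus strand 7 of 11 rose, with a median log2 fold change of 1.39, from much lower levels. The trio mt-Th (histidine), mt-Ts2 (serine) and mt-Tl2 lies between mt-Nd4 and mt-Nd5. The largest difference was that of mt-Tl2, at 29, 16, 15 and 17 counts in the control and 115, 83, 91 and 88 counts in the Carm1-edited libraries, a 4.47-fold rise (log2 2.16 ± 0.18, edgeR adjusted p = 1.3e-14). For mt-Th there were 9, 7, 9 and 11 counts against 39, 44, 37 and 41, a 4.06-fold rise, and mt-Ts2 rose 2.62-fold. These exceed the rises of the flanking mt-Nd4 and mt-Nd5, which were 1.21-fold and 1.35-fold, but the difference between tRNA and flanking genes was not tested.

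The other 4 plus-strand tRNA genes that rose were mt-Tg (glycine, 3.23-fold), mt-Tv (valine, 3.18-fold), mt-Tw (tryptophan, 2.87-fold) and mt-Ti (isoleucine, 2.51-fold), each at a mean of 1.04 CPM or less in both groups. In contrast mt-Tl1 (leucine), which directly precedes mt-Nd1, was at 7.34, 7.5, 7.24 and 6.14 CPM in the control and 7.22, 7.64, 7.20 and 7.79 CPM in the Carm1-edited libraries, with overlapping groups (log2 0.08 ± 0.068, edgeR adjusted p = 0.27). It was called higher with upper-quartile factors (log2 0.29), with library totals alone (log2 0.24) and, under TMM factors, when genes had to reach 5 CPM in 4 libraries (log2 0.17, edgeR adjusted p = 0.019). The other 5 tRNA genes that were not called, mt-Tf (phenylalanine), mt-Tm (methionine) and mt-Tt (threonine) on the plus strand and mt-Tq (glutamine) and mt-Ty (tyrosine) on the minus strand, had group means of 0.242 to 0.745 CPM. The single negative value among the tRNA genes was that of mt-Tm (log2 -0.55 ± 0.29, edgeR adjusted p = 0.079), which passed as lower without control replicate 4 (log2 -0.75) or Carm1-edited replicate 4 (log2 -0.88). The gene mt-Ty passed as higher under the same scalings as mt-Tl1 (log2 0.64 and 0.59) and without Carm1-edited replicate 4 (log2 0.52). The 4 untested members were mt-Td with 0 counts in all 8 libraries, mt-Tk with 1 count in 1 Carm1-edited library, mt-Ts1 with 0 to 6 counts per library and mt-Tr with 6 to 29. In a library, 3 counts correspond to 0.0724 to 0.0799 CPM on library totals.

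The make-up of the counts on chromosome MT was compared next, as each gene's share of their total. That total holds the protein and tRNA genes only, so the shares are not shares of all mitochondrial RNA. The share of mt-Co1 was 45.24%, 45.04%, 44.84% and 44.91% in the control libraries and 67.0%, 67.8%, 67.6% and 66.7% in the Carm1-edited libraries, a difference of 22.3 percentage points (exact permutation p = 0.0286, adjusted p = 0.0571 over 8 library measures). The spread within each group was under 1 percentage point by SD (0.175 and 0.516). As shares sum to a fixed total, those of the other genes taken as a whole were lower by the same amount. The share of mt-Nd1 lay between 15% and 15.3% for the control group and between 7.62% and 7.998% for the Carm1-edited group, and that of mt-Cytb 14.1% to 14.5% and 5.91% to 6.02%. The share of mt-Nd5 was 9.84% to 9.93% against 7.93% to 8.31%. None of these 4 shares overlapped between the groups.

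**Figure D4:**
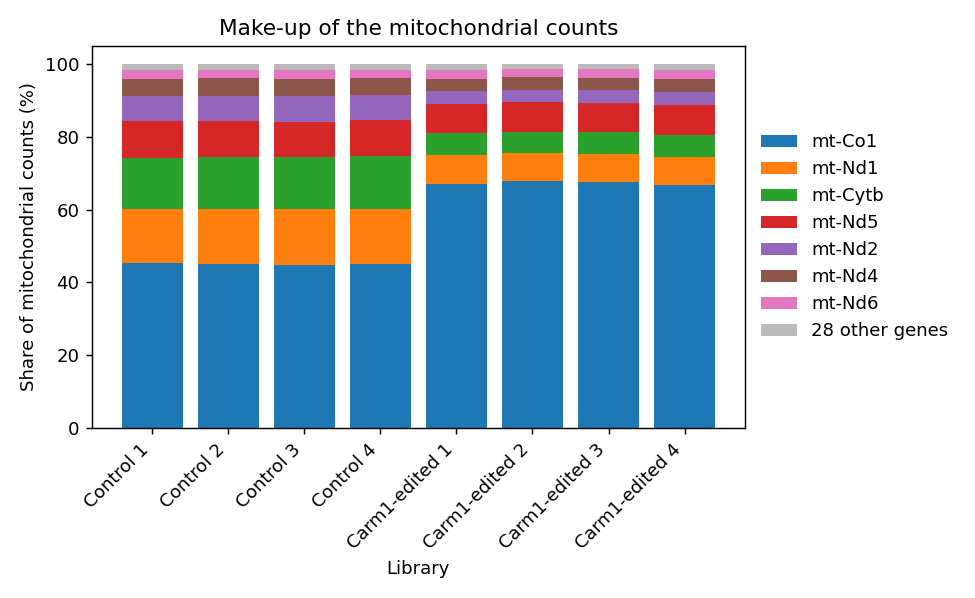
Share of the counts on chromosome MT (%) held by the 7 most counted mitochondrial genes and by the rest (grey), as stacked bars for each of the 8 libraries. The bar of mt-Co1 ends at 44.8% to 45.2% in the 4 control libraries and at 66.7% to 67.8% in the 4 Carm1-edited libraries.

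A second model took the mitochondrial total as the library size for all genes (edgeR quasi-likelihood test). Of the 31 tested members 9 rose and 13 fell in share, beside 21.8% and 68.0% of all 14970 genes (89.8% called in either direction), and 15 did not overlap between groups (85.7% of all genes). The protein genes that rose in share were mt-Co1 (log2 0.58 ± 0.023) and mt-Nd3 (log2 0.38 ± 0.094). The share of mt-Nd6 differed by less than the spread, at 2.32% ± 0.0302 and 2.40% ± 0.175 (SD, n = 4, log2 0.05 ± 0.039, edgeR adjusted p = 0.24), although it passed as higher without Carm1-edited replicate 2 (log2 0.09, edgeR adjusted p = 0.0041). The other 10 protein genes fell in share. The 7 tRNA genes that rose in share, mt-Tv, mt-Ti, mt-Tw, mt-Tg, mt-Th, mt-Ts2 and mt-Tl2, were all annotated on the plus strand. Of the 3 that fell in share, mt-Tl1 (log2 -0.64 ± 0.068) and mt-Tm (log2 -1.26 ± 0.29) were also annotated on the plus strand. The other, mt-Tp (log2 -0.29 ± 0.050), was on the minus strand. Leaving out 1 library ended the call in 5 of 8 cases for mt-Ti, 4 for mt-Atp8, 3 for mt-Tv, 2 for mt-Ts2 and 1 for mt-Nd4l. The tRNA share of the mitochondrial counts was 1.10% ± 0.0443 for the control and 1.01% ± 0.0623 for the Carm1-edited group (SD, n = 4), with overlapping groups (exact permutation p = 0.057, adjusted p = 0.091 over 8 library measures).

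These calls depend on mt-Co1 being part of the total. With mt-Co1 left out of the total, 22 members rose and 3 fell, the 3 being mt-Nd1 (log2 -0.21), mt-Nd2 (-0.25) and mt-Cytb (-0.51), which also fell in CPM. For example mt-Nd5 was at log2 0.47, mt-Nd4 at 0.31 and mt-Nd6 at 0.80 in that comparison, whereas mt-Nd5 and mt-Nd4 were at -0.28 and -0.44 with mt-Co1 in the total.

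The nuclear genes that make, process and translate mitochondrial RNA, or encode partners of its proteins, were counted in lists. Over all lists 213 of 285 tested genes fell, 47 rose and 25 were not called, with a median log2 fold change of -0.57 (0.02 for all tested genes). With upper-quartile factors 76 were called higher and 183 lower. Of all 14970 tested genes 43.2% were called lower and 44.5% higher under TMM factors, the background for each list count here and below. Among 10 genes of mitochondrial transcription there were 5 higher and 4 lower (median 0.09), close to the shares over all genes. With upper-quartile factors 6 were higher and 4 lower. Among the 10 genes Polrmt fell from 46.7 ± 1.47 to 31.2 ± 0.712 CPM. Tfam, which packages the genome and acts at its promoters, fell from 80.5 ± 1.49 to 60.8 ± 3.34 CPM. Tfb2m, the promoter-melting factor, fell 1.32-fold and Tefm, the elongation factor, 1.52-fold. Mterf3, of the family of mitochondrial terminator-like factors, rose 1.16-fold, a log2 difference of 0.21 that is of the size of the scaling shift, and Mterf1b, the largest rise of the list, 2.75-fold. Of 15 mitochondrial DNA replication genes 9 fell and 6 rose (7 and 6 with upper-quartile factors). The helicase gene Twnk fell 1.29-fold, Dna2, a nuclease-helicase that also acts in the nucleus, fell from 31.4 ± 0.839 to 2.61 ± 0.149 CPM, the polymerase gene Polg rose 1.26-fold and the primase gene Primpol rose 1.89-fold.

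Of 33 genes of mitochondrial RNA processing and stability 23 fell, 6 rose and 4 were not called, with a median log2 fold change of -0.59. With upper-quartile factors 21 fell and 9 rose. Lrpprc, whose protein binds and stabilises mitochondrial mRNAs, fell from 162 ± 1.249 to 43.4 ± 0.415 CPM (log2 -1.90 ± 0.025, edgeR adjusted p = 6.5e-42). Its partner Slirp fell from 29.3 ± 0.403 to 17.7 ± 0.880 CPM. Rexo2, an oligoribonuclease, had the largest fall of the list, from 257 ± 2.87 to 57.2 ± 0.878 CPM, and Gtpbp3, a tRNA-modifying enzyme, the largest rise, from 23.8 ± 0.628 to 35.6 ± 1.43 CPM. Mtpap, the mitochondrial poly(A) polymerase, was at 42.3 ± 0.872 and 47.7 ± 1.20 CPM, a rise of 1.13-fold that is smaller than the shift between scalings.

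Mitochondrial ribosomal protein genes fell in 63 of 77 cases and rose in 8 (median log2 -0.70, and 54 and 15 with upper-quartile factors), with Mrps28 4.06-fold lower and Mrpl9 2.16-fold higher. Of 19 mitochondrial tRNA synthetase genes 14 fell and 2 rose (12 and 5 with upper-quartile factors), Yars2 2.90-fold lower and Fars2 1.39-fold higher. The 14 translation factor genes were 6 higher, 5 lower and 3 not called (median 0.06, and 9 higher and 3 lower with upper-quartile factors). The counts under TMM factors were close to the shares over all genes. Gfm1, an elongation factor, was 2.17-fold lower and Mtif3, an initiation factor, 1.42-fold higher.

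The nuclear partners of the mitochondrially encoded subunits had a negative median log2 fold change in every complex. With upper-quartile factors 26 genes fell and 7 rose for complex I, and 6 fell and 2 rose for complex III. For complex IV 8 fell and 3 rose under those factors, for its assembly genes 11 and 7, and for complex V 13 and 2. The counts that follow are those under TMM factors unless stated. For complex IV, 8 of 11 nuclear subunit genes fell and 2 rose (median log2 -0.52), with Ndufa4 3.62-fold lower and Cox4i1 1.23-fold higher, beside the 2.46-fold rise of mt-Co1. Of 19 tested complex IV assembly genes 12 fell and 5 rose. They included Cox10, which makes the heme of the enzyme and was 2.62-fold lower, and Surf1, an assembly factor, which rose from 33.6 ± 0.988 to 86.2 ± 4.69 CPM. For complex I, 30 of 36 fell and 3 rose (median -0.58, Ndufa12 2.69-fold lower and Ndufa6 1.62-fold higher). For complex III, 8 of 9 fell and 1 rose (median -0.88, Uqcrq 3.05-fold lower and Uqcrh 1.72-fold higher), while mt-Cytb fell 1.45-fold. For complex V, 15 of 16 fell and 1 rose (median -0.63, Atp5g1 4.71-fold lower and Atpif1, its inhibitor, 1.58-fold higher). All 4 genes of complex II, which has no mitochondrially encoded subunit, fell, Sdhb the most at 1.58-fold (3 of 4 with upper-quartile factors).

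All 14 genes related to mitochondrial mass and import fell (median log2 -0.62), Phb, a prohibitin of the inner membrane, the most at 6.23-fold. With upper-quartile factors 12 of them fell and 1 rose. Of 8 tested biogenesis regulators 4 fell, 2 rose and 2 were not called (3 fell and 4 rose with upper-quartile factors). Under TMM factors the share that fell was close to that over all genes. Pprc1, a coactivator of the PGC-1 family, fell from 166 ± 2.87 to 28.3 ± 1.33 CPM and Ppargc1b from 9.10 ± 0.591 to 5.90 ± 0.225 CPM, while Ppargc1a had too few counts to be tested. Nrf1, a transcription factor of respiratory genes, fell 1.19-fold, and Gabpa, another, rose 1.08-fold and Esrra, a nuclear receptor, 1.10-fold, all 3 by a log2 value close to or below the shift between scalings.

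**Figure D5:**
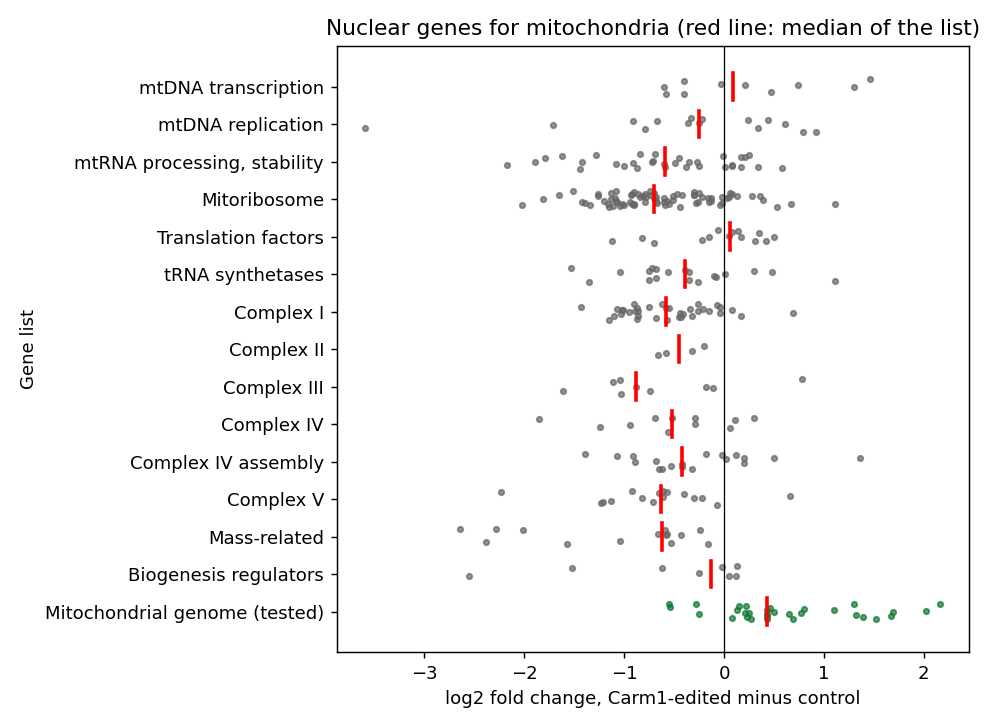
Log2 fold change (Carm1-edited minus control) of each tested gene in 14 lists of nuclear genes and of the 31 tested mitochondrial genome genes (green, bottom), with a red line at each median. The medians of 12 of the 14 nuclear lists are below 0, whereas that of the mitochondrial genome genes is 0.43.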

How the data were processed

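The authors deposited whole-number counts per Ensembl gene, made with RSEM according to the labels' protocols. The build mm10 is named in the submitters' processing notes. The aligner, the annotation release and the handling of reads with several matches were not stated. RNA with an integrity number above 9.5 went into TruSeq RNA v2 libraries, read as 150 bp pairs, per the labels' protocols. This kit is a poly(A) kit without strand marks. The deposited gene lengths, in bases, served only for CPM per kilobase. Symbols (48970 of 49315 identifiers) and all sequences shown come from GENCODE M21, in which the 35 members have the same start and end. Copies were found with blastn 2.17.0 among annotated transcripts, as no genome sequence was used.

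Genes passing filterByExpr were tested with edgeR 4.0.16 in R 4.3.3 (robust quasi-likelihood F test, Benjamini-Hochberg over 14970 genes). TMM factors were 0.938 to 0.953 for control and 1.05 to 1.07 for edited libraries. Each SE was derived from the log2 fold change and its F value. Shares were tested with the mitochondrial total as library size, and library measures by exact two-sided permutation (scipy 1.17.1). Both fits were run on simulated counts in which a small part of the genes was changed, with rises and falls in equal number. In the real data 87.7% of genes were called, so that run does not test the scaling used here. Alternatives used DESeq2 1.42.0, limma-voom 3.58.1, other scaling factors, filters and totals, and left-out libraries. Summing members with their copies was added after seeing the data. Named genes were all members, their copies, Carm1, 15 preset nuclear genes and, in each list, the largest rise and fall past the threshold at a mean of at least 2 CPM. Members and lists were chosen with earlier results of these data known.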

Additional observations from a re-analysis of the deposited data

Results flagged for a closer look

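In the Carm1-edited group, replicate 2 lay apart from the other 3 libraries in the share of all counts held by the nuclear copies, at 0.00589% against 0.00642%, 0.00643% and 0.00652%. The gap to the nearest library was 0.840 of the group's range, just past Dixon's 95% critical value for 4 samples. Among 78 groups of 4 values tested in this way 1 was found, where chance gives about 1 in 20.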

How the results depend on the processing

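Replicate numbers did not pair the libraries, since deviations of same-numbered libraries correlated at -0.051, -0.051, -0.051 and -0.085 over all tested genes. With the replicate number as a block, 21 members were called higher and 3 lower in CPM, and 9 higher and 14 lower in share. The block left the list genes at 47 higher and 213 lower. It cannot move the difference in the mt-Co1 share (22.3 percentage points), which equals that of the group means by construction. Leaving out each library in turn gave 20 to 23 members higher and 3 to 4 lower in CPM, and 7 to 9 higher and 13 to 15 lower in share. On the log2 scale mt-Tq then ran from -0.0387 to 0.3733, mt-Tt from -0.0507 to 0.4229 and the share of mt-Tn from -0.0777 to 0.0113. The difference in the log2 ratio of mt-Atp8 to mt-Atp6 ran from -0.09356 to 0.006168 and that of mt-Nd4l to mt-Nd4 from -0.1882 to 0.1458, so none of these 5 had a fixed direction. Exact tests of 3 against 4 libraries cannot reach the threshold. When members had to reach 5 CPM in 4 or more libraries, 13 were called higher, as fewer were tested. Upper-quartile factors gave 76 list genes called higher. With TMM-scaled library sizes the mitochondrial share without mt-Co1 differed by -0.007611 percentage points.

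With mt-Co1 left out of the mitochondrial total, 22 members were called higher and 3 lower, because the total no longer held the gene with the largest share. Log2 differences in share then turned positive for mt-Tf (0.2565), mt-Tl1 (0.1113), mt-Tq (0.1857), mt-Ta (0.6791), mt-Tn (0.7193), mt-Ty (0.46), mt-Co2 (0.2538), mt-Atp8 (0.4884), mt-Atp6 (0.5307), mt-Co3 (0.2851), mt-Nd4l (0.247), mt-Nd4 (0.3052), mt-Nd5 (0.4663), mt-Te (0.4655), mt-Tt (0.1607) and mt-Tp (0.4574). The differences in the tRNA share and the mt-Nd6 share became 1.103 and 3.111 percentage points. DESeq2 called 6 members higher in share. The planned measures on rRNA were not run. Low counts limit the tRNA genes, and sequence shared with annotated nuclear copies limits mt-Co2, mt-Atp6, mt-Co3, mt-Nd3 and mt-Nd4l and, over part of their length, mt-Nd4 and mt-Co1. Copies outside annotated transcripts were not sought, so mt-Atp8, which lies between copied stretches, cannot be called free of them.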
